A study of Mus musculus with 24 samples.

Results

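The Eif1a-like 2-cell-stage genes Gm5662, Gm8300, Gm2016, Gm4027 and BB287469 were followed in RNA sequencing of 6 genotypes of mouse embryonic stem (ES) cells. They were chosen by symbol: every row with one of the 5 names was taken from both deposited tables, which gave 6 of the 37310 gene rows of each table, because BB287469 stands there under a pair of Ensembl IDs (ENSMUSG00000071217.2 and ENSMUSG00000079031.1). The genotypes were wild type (WT), loss of Smchd1 (Smchd1 KO), loss of Dux (Dux KO), loss of Smchd1 plus Dux (Double KO), loss of the Tet genes (Tet TKO) and loss of the Tet genes plus Smchd1 (quad KO), with 3 biological replicates each. All cells were grown without feeder cells on gelatin in medium with serum and LIF. Whether a genotype rests on 1 clone, and how the alleles were made, was not given in the sources used here.

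Eif1a encodes eIF1A, a translation initiation factor that binds the small ribosomal subunit and helps it scan an mRNA and choose the start codon. The mouse genome carries, beside Eif1a and its X-linked paralog Eif1ax, an array of Eif1a-like copies on chromosome 12 that are transcribed in the 2-cell embryo, when the zygotic genome is first switched on, and in rare ES cells that resemble it. DUX is a homeobox transcription factor that activates many genes of that stage, SMCHD1 is a noncanonical SMC protein that helps keep genes silent, for example on the inactive X chromosome, and TET enzymes oxidise 5-methylcytosine in DNA. In bulk RNA, a change in the number of expressing cells and a change in the RNA per cell cannot be told apart.

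The copies were almost the same in sequence, which limits what the level of a single row can say. In the reference annotation (GENCODE M21, build GRCm38), 16 genes on chromosome 12 encode proteins of 144 residues related to Eif1ax, and 5 of the 6 member rows match one of them by ID. The proteins translated from those 5 coding sequences were 90.28% to 93.75% identical to Eif1ax, and the coding sequences were 97.2% to 100% identical to each other. Coding bases 1 to 150 are shown from the start codon, 5′ to 3′ on the coding strand, to let a reader see how little separates the rows; capitals mark a base that differs from the majority of the 5 copies. BB287469 (ENSMUSG00000079031.1) has the same 150 bases as Gm4027.
Gm5662 (ENSMUSG00000072905.4): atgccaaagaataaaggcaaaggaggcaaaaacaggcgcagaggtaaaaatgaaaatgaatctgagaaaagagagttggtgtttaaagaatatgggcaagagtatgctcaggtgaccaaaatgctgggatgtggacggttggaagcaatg
Gm2016 (ENSMUSG00000079029.1): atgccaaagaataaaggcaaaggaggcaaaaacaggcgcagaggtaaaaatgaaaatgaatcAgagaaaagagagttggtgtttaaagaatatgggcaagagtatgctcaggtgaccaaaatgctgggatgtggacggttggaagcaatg
Gm8300 (ENSMUSG00000079034.1): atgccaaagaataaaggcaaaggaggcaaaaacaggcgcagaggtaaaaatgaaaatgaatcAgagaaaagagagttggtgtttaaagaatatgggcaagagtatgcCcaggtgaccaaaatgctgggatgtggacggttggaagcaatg
Gm4027 (ENSMUSG00000092019.1): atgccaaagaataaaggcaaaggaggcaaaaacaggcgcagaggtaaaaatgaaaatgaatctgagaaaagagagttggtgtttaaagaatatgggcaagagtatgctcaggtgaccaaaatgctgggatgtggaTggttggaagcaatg
The symbols of the tables and of the annotation are not the same for every ID. ENSMUSG00000072905.4, called Gm5662 in the tables, is named Gm2016 in the annotation, and ENSMUSG00000079029.1, called Gm2016 in the tables, is named Gm5662 there. ENSMUSG00000071217.2 has no entry in that annotation. The names of the tables are used throughout. Of all 50-base words of a transcript, the share found in a transcript of another gene was 26.6% for Gm8300, 77.9% for Gm2016, 81.3% for Gm5662, 94.4% for Gm4027 and 96.6% for BB287469 (ENSMUSG00000079031.1). How reads that match several copies were counted was not given in the sources used here, so the sum over the 6 rows is given beside the single rows.

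RefSeq promoters of 300 bases, from 250 before the start to 50 after it, were at hand for 2 of the 5 symbols, and they are shown to let a reader compare them. The annotation gives the symbol BB287469 to ENSMUSG00000079031, the row with few reads. Whether the promoter shown under that symbol is also that of ENSMUSG00000071217.2, the more abundant row, was not tested. Both promoters lie on the plus strand of chromosome 12 in build GRCm38.p6, and capitals mark TATATATA.
Gm4027, chr12:87618659-87618958: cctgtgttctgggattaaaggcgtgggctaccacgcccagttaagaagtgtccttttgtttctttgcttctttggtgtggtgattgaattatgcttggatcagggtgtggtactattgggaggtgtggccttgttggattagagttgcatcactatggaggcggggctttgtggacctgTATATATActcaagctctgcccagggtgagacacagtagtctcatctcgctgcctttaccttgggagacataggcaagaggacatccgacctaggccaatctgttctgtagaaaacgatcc
BB287469, chr12:87816327-87816626: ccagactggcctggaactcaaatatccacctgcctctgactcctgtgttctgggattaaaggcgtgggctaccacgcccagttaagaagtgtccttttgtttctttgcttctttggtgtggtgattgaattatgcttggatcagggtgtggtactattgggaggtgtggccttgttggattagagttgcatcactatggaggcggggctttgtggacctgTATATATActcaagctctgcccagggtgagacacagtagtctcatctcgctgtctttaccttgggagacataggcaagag
The windows overlap by 259 bases when shifted by 41, and 258 of these match. TATATATA occurred once in each, at position -71 from the annotated start of Gm4027 and at -30 from that of BB287469, and in 0.819% of 32851 promoters of the same length, both strands searched. The GC box letters GGGCGG were in neither (35.7% of all promoters). CCAAT was found at 2 places in Gm4027 and 1 in BB287469 (37.4% of all promoters).

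Levels are the deposited CPM values, reads scaled to the size of the library. A library held 11.4 to 74.4 (in 1e6) gene reads in the first table, which has the 4 genotypes with intact Tet genes, and 27.3 to 34.6 (in 1e6) in the second, which has Tet TKO and quad KO. The tables were scaled separately, so values were compared within a table only. Smchd1 transcript was lower in each genotype that lacks the gene, on the fitted scale by 3.46-fold without Smchd1 alone (limma, adjusted p = 0.000395), by 2.43-fold in Double KO against Dux KO (adjusted p = 0.0294) and by 7.31-fold in quad KO against Tet TKO (adjusted p = 0.000827). All 8 ES cell markers were present in every library. Of these, 5 fell in quad KO against Tet TKO, Nanog by the most (-2.40 on the log2 scale, adjusted p = 0.00038), followed by Esrrb (-1.92), Klf4 (-1.74), Zfp42 (-1.34) and Sox2 (-0.48), while Dppa5a rose (0.29) and Tdgf1 and Pou5f1 did not pass. In that comparison 20.6% of all genes tested were lower and 17.1% higher. In the first table none of the 8 markers passed against WT, and 1 fell in Double KO vs Smchd1 KO, beside 2.98% of all genes. Their sum was 4086 to 4171 CPM in WT and 4032 to 4595 CPM in Smchd1 KO. It was 3495 to 4015 CPM in Dux KO and 2291 to 3625 CPM in Double KO. The part of these markers in the family's values was not tested. The row called Dux (ENSMUSG00000058537.2) is named AW822073 in the annotation, and whether it lies in the deleted part was not given in the sources used here, so it does not check the Dux labels. It had 6 reads in Dux KO replicate 1 (0.447 CPM, above every WT replicate) and 4 in Double KO replicate 2 (0.245 CPM), with 0 in the other replicates of both genotypes. Gm10807 (ENSMUSG00000075046.3), named Duxf3 in the annotation, had 2 reads in Dux KO and 6 in Double KO, where all 3 replicates held some. Without Dux KO replicate 1, the 4 member calls in Dux KO against WT were all kept, and without Double KO replicate 2 so were the 4 in Double KO against WT. The study's design text calls the replicates biological, with RNA isolated separately, but does not say whether they were separate cultures. WT replicates differed from each other about as little as repeat runs of 1 replicate did (noise ratio 1.35 to 2.33 between replicates and 1.63 to 2.00 between runs, where 1 is counting error), so p-values measure the spread between these samples, which may be partly technical.

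In WT cells the family was present at a low level in all 3 replicates. Gm5662 was the most abundant row, at 2.16, 1.99 and 2.58 CPM in replicates 1, 2 and 3. Gm8300 followed at 1.97, 1.60 and 2.33 CPM and BB287469 (ENSMUSG00000071217.2) at 1.29, 1.59 and 1.35 CPM. Gm2016 was at 0.960, 0.869 and 1.12 CPM. The replicate ranges of Gm5662 and Gm8300 overlapped, and those of BB287469 and Gm2016 lay below that of Gm8300 and apart from each other. Gm4027 had 3, 6 and 10 reads (0.0337, 0.0716 and 0.0943 CPM), and the second BB287469 row (ENSMUSG00000079031.1) had 2 reads in all of WT. The 6 rows summed to 6.69 ± 0.692 CPM (SD, n = 3). The copies named here have similar transcript lengths in the annotation, from 1766 to 1873 bases, apart from ENSMUSG00000071217.2, for which no length was at hand.

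Loss of Smchd1 was followed by higher levels of the family in every replicate. Gm5662 stood at 24.3, 25.8 and 11.7 CPM in Smchd1 KO replicates 1, 2 and 3, a mean of 20.6 ± 7.71 CPM against 2.24 ± 0.306 CPM in WT (SD, n = 3 each). Gm8300 was at 20.1, 16.5 and 8.74 CPM, against 1.97 ± 0.362 CPM in WT. BB287469 (ENSMUSG00000071217.2) was at 15.4, 14.4 and 6.31 CPM. In each of these rows the lowest Smchd1 KO replicate was above the highest WT replicate, and replicate 3 was the lowest of the Smchd1 KO replicates. The share of all genes with such a separation was not counted. Gm2016 was at 8.68, 8.36 and 3.90 CPM, and Gm4027 at 1.35, 1.57 and 0.686 CPM.

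Each of the 5 rows tested rose in Smchd1 KO vs WT. The fitted changes came from limma on log2(CPM + 0.5), with a row kept where at least 3 samples of a table reached 0.5 CPM and p-values adjusted over all 16200 kept genes. The added 0.5 makes fitted changes smaller than ratios of CPM in low rows. Gm5662 rose by 2.87 ± 0.27 on the log2 scale (SE; adjusted p = 0.000568). BB287469 (ENSMUSG00000071217.2) rose by 2.62 ± 0.28 (adjusted p = 0.00123), Gm8300 by 2.60 ± 0.27 (adjusted p = 0.00106) and Gm2016 by 2.26 ± 0.25 (adjusted p = 0.00125). These 4 rows passed the filter in WT as well as in Smchd1 KO. Gm4027 rose by 1.55 ± 0.20 (adjusted p = 0.00192), but it reached 0.5 CPM in Smchd1 KO alone, so a difference was built into its passing. The order of the rows depends on the added 0.5: as ratios of mean CPM, Gm4027 was 18.03-fold and Gm5662 9.18-fold higher. Of all genes tested, 0.648% were higher and 0.889% differed in either direction. The calls of these 5 rows held under each alternative run with them, including without each WT or Smchd1 KO replicate in turn (adjusted p at most 0.0186).

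The second BB287469 row did not pass the filter. It had 4 reads in Smchd1 KO and 2 in WT, with groups that overlapped. As means of CPM, the sum of the 6 rows went from 6.69 ± 0.692 in WT to 55.97 ± 21.3 in Smchd1 KO, an 8.37-fold difference, with replicates at 69.9, 66.6 and 31.4 CPM. The ratio of pooled reads was 7.90 (95% interval 7.48 to 8.35, counting error only). The joined runs of each sample gave nearly the same sums. Run 1 read 70.6, 68.8 and 31.9 CPM and run 2 read 69.2, 64.4 and 30.9 CPM in Smchd1 KO replicates 1, 2 and 3, but these runs were joined by their similarity, so some of that likeness is built in.

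**Figure D1:**
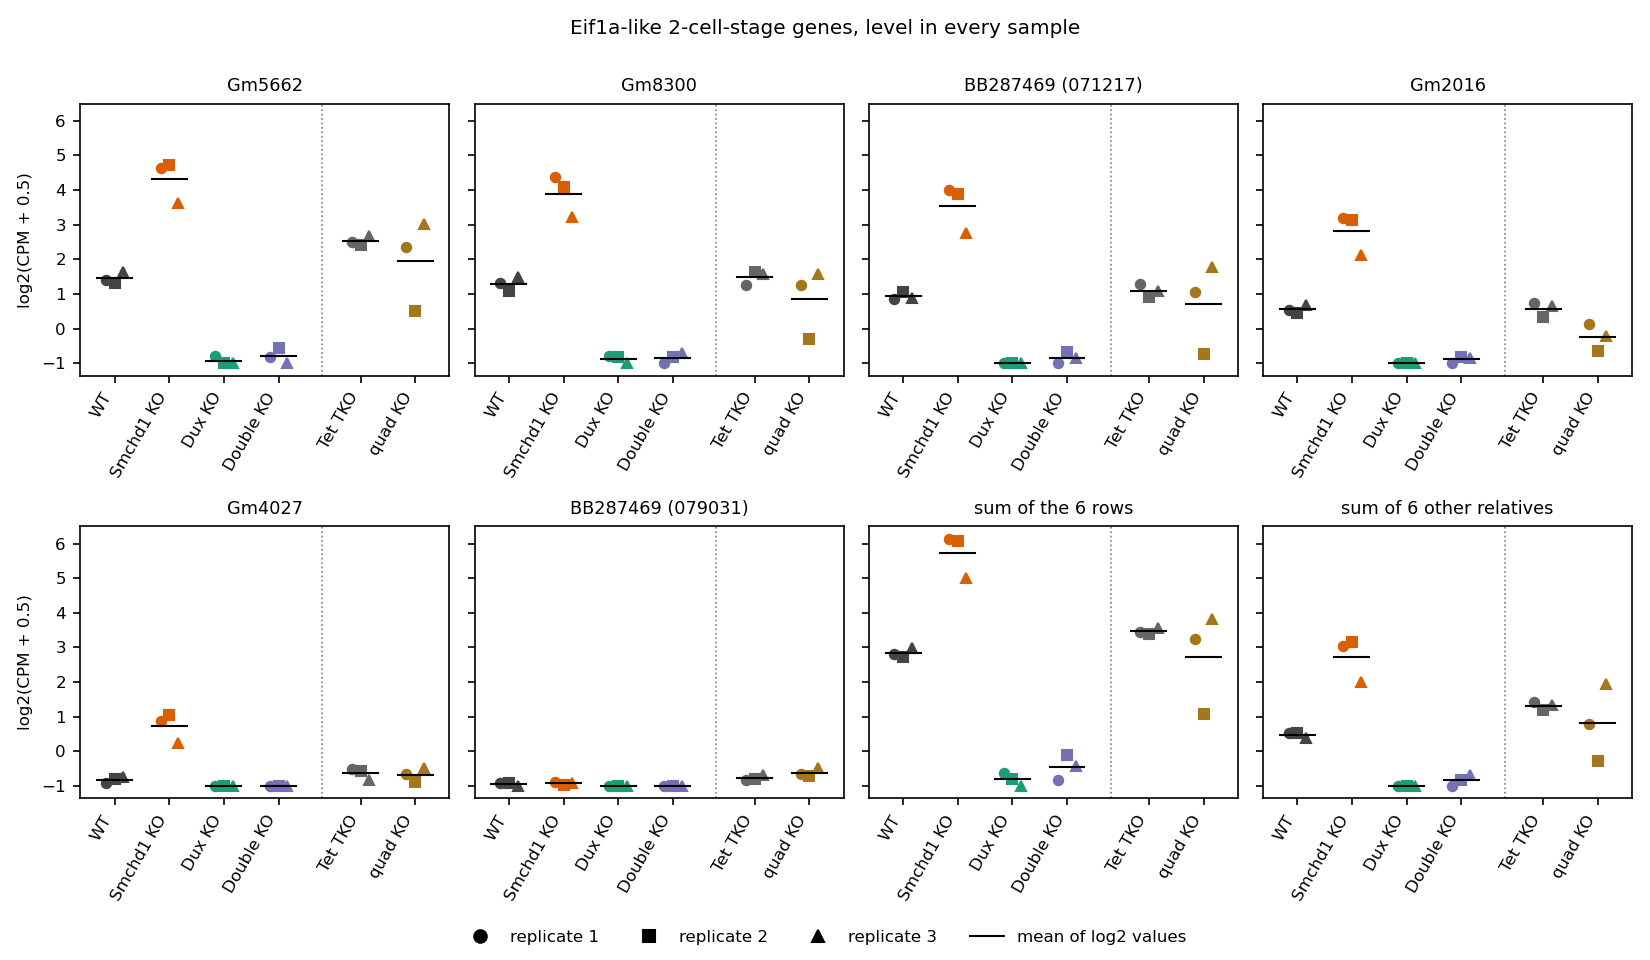
Level of each member row, of their sum and of the sum of 6 other relatives, as log2(CPM + 0.5) on the vertical axis, for 3 replicates of each genotype (symbols; the line is their mean); the dotted line parts the tables, which were scaled separately. Each of the first 5 panels has Smchd1 KO above WT in all replicates, Dux KO and Double KO at or near the value of 0 CPM, and quad KO replicate 2 below the other replicates of that genotype.

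Without Dux the family was almost silent. BB287469 (ENSMUSG00000071217.2), Gm2016, Gm4027 and the second BB287469 row had no read in any Dux KO replicate. Gm8300 had 1, 1 and 0 reads and Gm5662 had 1, 0 and 0. The 3 reads of the whole family lay in 43.2 (units of 1e6) effective reads, against 1448 family reads in WT. BB287469 was at least 20.3-fold and Gm2016 at least 14.1-fold lower than in WT, each against the limit of 3 reads over the Dux KO group (0.0694 CPM). For Gm4027 the WT mean of 0.0665 CPM was itself under that limit, so no fold is given. The pooled family level was 101-fold lower than in WT (95% interval 34.4 to 488, counting error only).

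In the fit, 4 of the 5 tested rows fell in Dux KO vs WT and none rose, beside 2.35% of all genes that were lower and 3.98% that differed in either direction. Gm5662 changed by -2.38 ± 0.27 on the log2 scale (adjusted p = 0.00555) and Gm8300 by -2.16 ± 0.27 (adjusted p = 0.00586). BB287469 (ENSMUSG00000071217.2) changed by -1.93 ± 0.28 (adjusted p = 0.00835) and Gm2016 by -1.56 ± 0.25 (adjusted p = 0.0126). Gm4027, already near 0 in WT, was at -0.18 ± 0.20 (adjusted p = 0.594). With 2 added in place of 0.5, the calls went from 4 to 2, Gm5662 and Gm8300. They also leaned on the WT replicates. Without WT replicate 1 or 3 none of the 5 rows passed (lowest adjusted p = 0.0509 and 0.0513), and without WT replicate 2 only Gm5662 and Gm8300 did. The WT and Dux KO replicates of the 4 rows did not overlap, a description given without the share of all genes for which this holds.

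In cells lacking both genes the family stayed near 0. Double KO held 12 family reads in 3 libraries: Gm5662 had 1, 3 and 0, Gm8300 0, 1 and 2, BB287469 (ENSMUSG00000071217.2) 0, 2 and 1, and Gm2016 0, 1 and 1 in replicates 1, 2 and 3. Gm4027 and the second BB287469 row had none. The sum was 0.243 ± 0.183 CPM, against 0.0726 ± 0.0746 CPM in Dux KO, and the replicates of these genotypes overlapped.

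No member passed limma's test in Double KO vs Dux KO, the loss of Smchd1 in cells without Dux, where 0.0123% of all genes differed (0.00617% higher and 0.00617% lower). At an unadjusted p under 0.05 the count was also 0 of 5, beside 1583 of all 16200 genes tested, and edgeR and DESeq2 called none. The differences ran from 0.00 for Gm4027 to 0.16 for BB287469 (95% interval -0.45 to 0.76, adjusted p = 0.912), and that of Gm5662 was 0.14 (95% interval -0.45 to 0.73, adjusted p = 0.920). In pooled reads the family was 3.50 times its Dux KO level, with a counting interval of 0.946 to 19.4 that includes the pooled ratio of Smchd1 KO to WT, 7.90, so a relative rise of that size was not excluded at this depth.

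Against Smchd1 KO, the 5 tested rows fell in Double KO, beside 2.98% of all genes that were lower (1.4% were higher and 4.38% differed). The log2 changes were -5.11 ± 0.27 for Gm5662, -4.73 ± 0.27 for Gm8300, -4.39 ± 0.28 for BB287469, -3.72 ± 0.25 for Gm2016 and -1.73 ± 0.20 for Gm4027, with adjusted p from 1.15e-06 to 0.000405. For Gm4027, which passed the filter through Smchd1 KO alone, a difference was built in. The mean sum was 231-fold lower. These calls held in each alternative in which the rows were tested. Double KO also lay below WT in 4 of 5 tested rows (0.889% of all genes were lower and 1.57% differed), with Gm5662 at -2.24 ± 0.27 (adjusted p = 0.00643). Gm8300 was at -2.13 ± 0.27 (adjusted p = 0.00643), BB287469 at -1.77 ± 0.28 (adjusted p = 0.0164) and Gm2016 at -1.45 ± 0.25 (adjusted p = 0.0246), while Gm4027 was at -0.18 ± 0.20 (adjusted p = 0.616). Without WT replicate 1 or 3 none of these calls was left, without WT replicate 2 there were 2, without Double KO replicate 1 there were 3, and with 2 added in place of 0.5 there was 1.

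**Figure D2:**
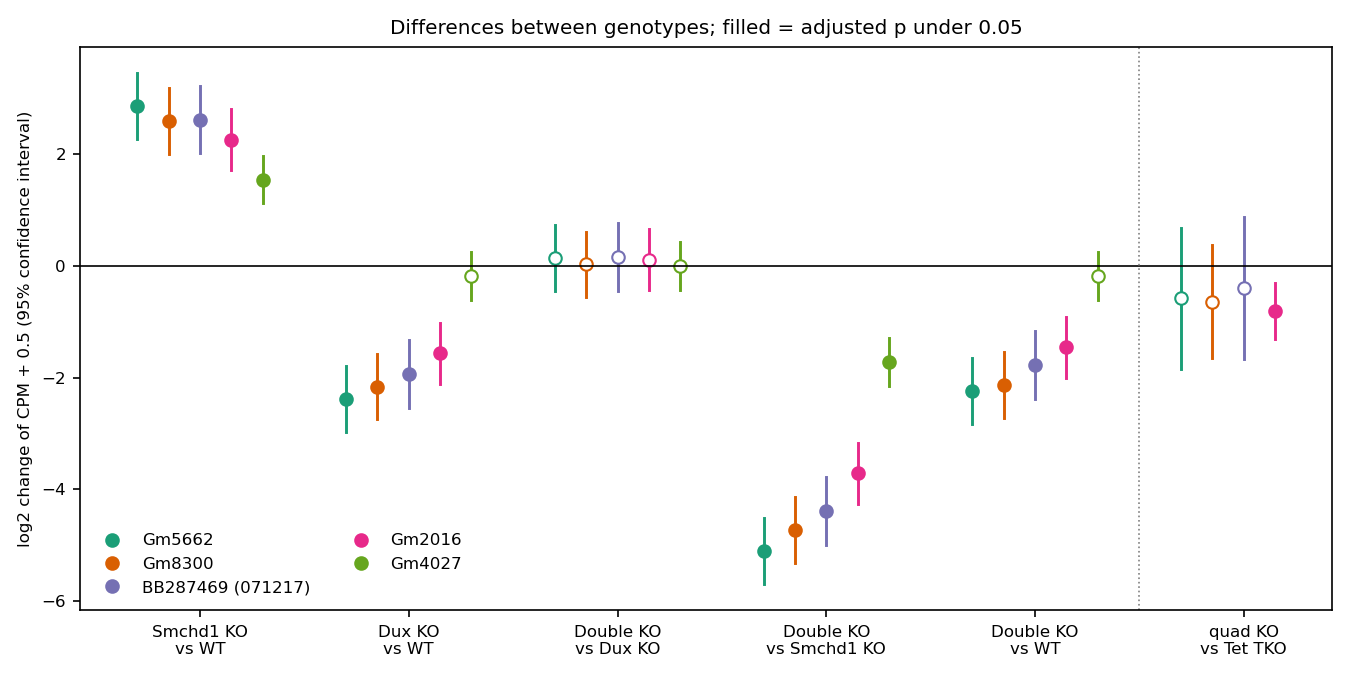
Difference between genotypes on the log2(CPM + 0.5) scale for the 5 rows that passed the filter (4 in quad KO vs Tet TKO), with 95% confidence intervals as vertical lines; filled points passed at an adjusted p under 0.05, and the dotted line parts the separately scaled tables. Gm5662 rises by 2.87 in Smchd1 KO vs WT and differs by 0.14 in Double KO vs Dux KO.

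Whether the effect of losing Smchd1 differed with and without Dux was tested as an interaction. On the log2(CPM + 0.5) scale it was negative and passed in the 5 tested rows (0.358% of all genes were lower, 0.154% higher and 0.512% either): -2.73 ± 0.39 for Gm5662 (adjusted p = 0.0224), -2.57 ± 0.38 for Gm8300 (adjusted p = 0.0236), -2.46 ± 0.39 for BB287469 (adjusted p = 0.0327), -2.15 ± 0.36 for Gm2016 (adjusted p = 0.0328) and -1.55 ± 0.28 for Gm4027 (adjusted p = 0.0355). With 3 and 12 family reads in Dux KO and Double KO, the added 0.5 CPM holds their difference near 0 on this scale even where the ratio is large, so the term does not show that the relative effect differed. Gm4027 also entered through Smchd1 KO alone. With edgeR and with DESeq2 no row passed, and edgeR gave BB287469 1.25 and Gm2016 1.07, with the opposite sign. With 0.1 added in place of 0.5 no row passed either (adjusted p at least 0.0534). None passed without any 1 of the WT replicates, without Smchd1 KO replicate 1 or 2, or without Dux KO replicate 2, and 1 passed without Double KO replicate 1.

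The order of the rows in the family was the same in WT and Smchd1 KO. Gm5662 supplied 34.3% of the family reads in WT and 36.3% in Smchd1 KO, Gm8300 29.9% and 26.98%, BB287469 (ENSMUSG00000071217.2) 19.9% and 22.2%, and Gm2016 14.4% and 12.3%. The replicates of these genotypes overlapped in the share of Gm5662 (31.0% to 36.2% in WT, 34.9% to 38.0% in Smchd1 KO). They did not overlap in the share of Gm2016 (13.5% to 15.2% and 12.2% to 12.5%) or of Gm4027, which went from 1.31% to 2.15%. Within the other table Gm5662 supplied 50.7% of the reads in Tet TKO and 53.7% in quad KO, and Gm2016 9.48% and 4.60%. Shares were described and not tested, and they rest on how reads of similar copies were split.

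**Figure D3:**
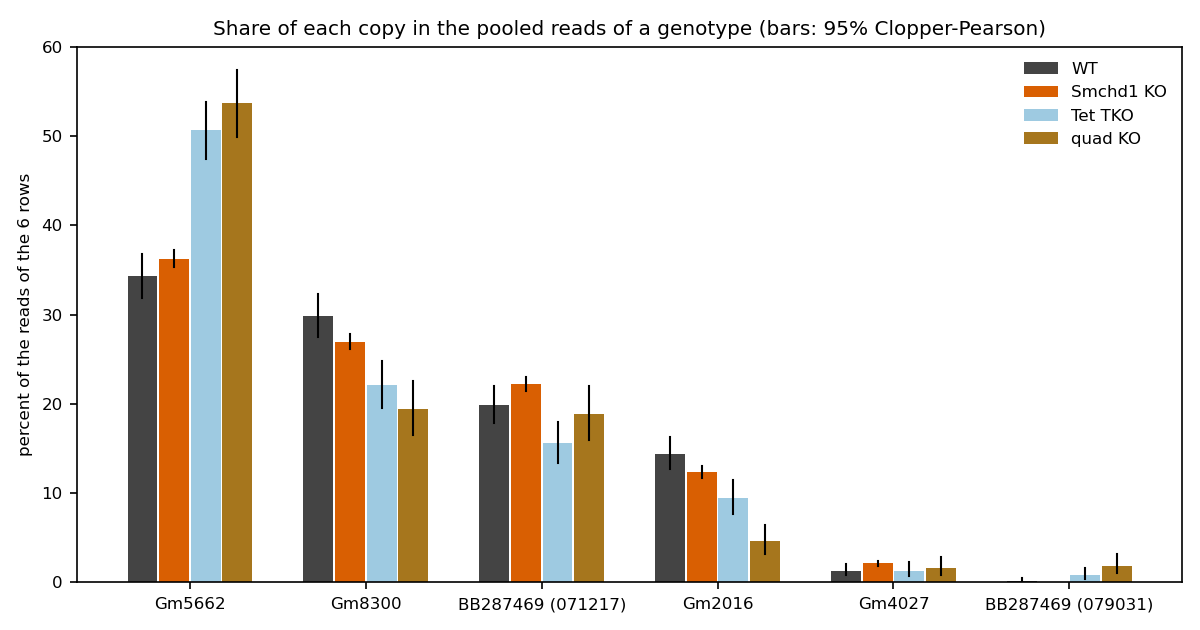
Percent of the pooled reads of the 6 rows that each row holds, in the 4 genotypes with more than 12 family reads, with exact 95% Clopper-Pearson intervals as vertical lines that cover counting error only. Gm5662 holds the largest share in each, 34.3% in WT and 36.3% in Smchd1 KO of 1 table and 50.7% in Tet TKO and 53.7% in quad KO of the other, which was scaled separately.

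Other copies of the array were also higher in Smchd1 KO, as a sum. The tables hold 6 more rows whose symbols the annotation gives to Eif1a-like genes of chromosome 12: Gm2035, Gm16368, Gm2056, Gm2075, Gm8332 and Gm6803. They were matched by symbol, since their IDs differ. Their sum was 0.940, 0.938 and 0.806 CPM in WT replicates 1, 2 and 3 and 7.66, 8.41 and 3.52 CPM in Smchd1 KO, with no read in Dux KO. Gm2035 and Gm16368 passed the filter, both through Smchd1 KO alone. Gm2035 rose by 2.04 ± 0.25 on the log2 scale in Smchd1 KO against WT (adjusted p = 0.00161) and Gm16368 by 1.06 ± 0.21 (adjusted p = 0.0384), and a difference was built into their passing. Neither passed in Dux KO against WT (adjusted p = 0.0706 and 0.181) or in Double KO against WT (0.110 and 0.203). Their WT means of 0.400 and 0.197 CPM lie under the added 0.5, which leaves little room for a fall on this scale. Both fell in Double KO vs Smchd1 KO (-2.79, adjusted p = 4.36e-05, and -1.53, adjusted p = 0.00217), where a difference was also built in. Gm2035 passed the interaction (adjusted p = 0.0355) and Gm16368 did not (adjusted p = 0.118). Gm6803 had no read in WT.

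The canonical genes behaved otherwise. Eif1a (ENSMUSG00000057561.3) stood at 259, 257 and 274 CPM in WT and 221, 213 and 212 CPM in Smchd1 KO, a fitted difference of -0.29 ± 0.17 that did not pass (95% interval -0.66 to 0.08, adjusted p = 0.417). Eif1ax had -0.18 ± 0.12 (adjusted p = 0.480) and Eif1ad, which encodes a protein with an eIF1A-type domain, -0.48 ± 0.18 (adjusted p = 0.237). Eif1ax fell by 0.54 ± 0.12 in Dux KO vs WT (adjusted p = 0.0374) and by 0.14 ± 0.05 in quad KO against Tet TKO (adjusted p = 0.0494).

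Of 28 scanning initiation factors, 1 rose in Smchd1 KO vs WT and none fell (median log2 difference -0.12, against 0.00 over all genes). It was Eif4a2, an RNA helicase subunit, at 0.70 ± 0.14 (adjusted p = 0.0429), and it fell by 0.60 ± 0.14 in Double KO vs Smchd1 KO (adjusted p = 0.0392). None passed when Dux KO was set against WT, Double KO against Dux KO or Double KO against WT, where limma called 644, 2 and 255 genes in all. At an unadjusted p under 0.05 the counts were 16 (15 of them lower), 1 and 6 of 28. Over all 16200 genes tested they were 4205, 1583 and 3743 in the same order. In quad KO vs Tet TKO 6 rose and 2 fell, by small amounts, beside 17.1% of all genes that were higher and 20.6% that were lower. Eif3h, a subunit of the eIF3 complex, rose by 0.26 ± 0.06 (adjusted p = 0.00900) and Eif1, the partner of eIF1A in scanning, fell by 0.24 ± 0.05 (adjusted p = 0.00478).

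**Figure D4:**
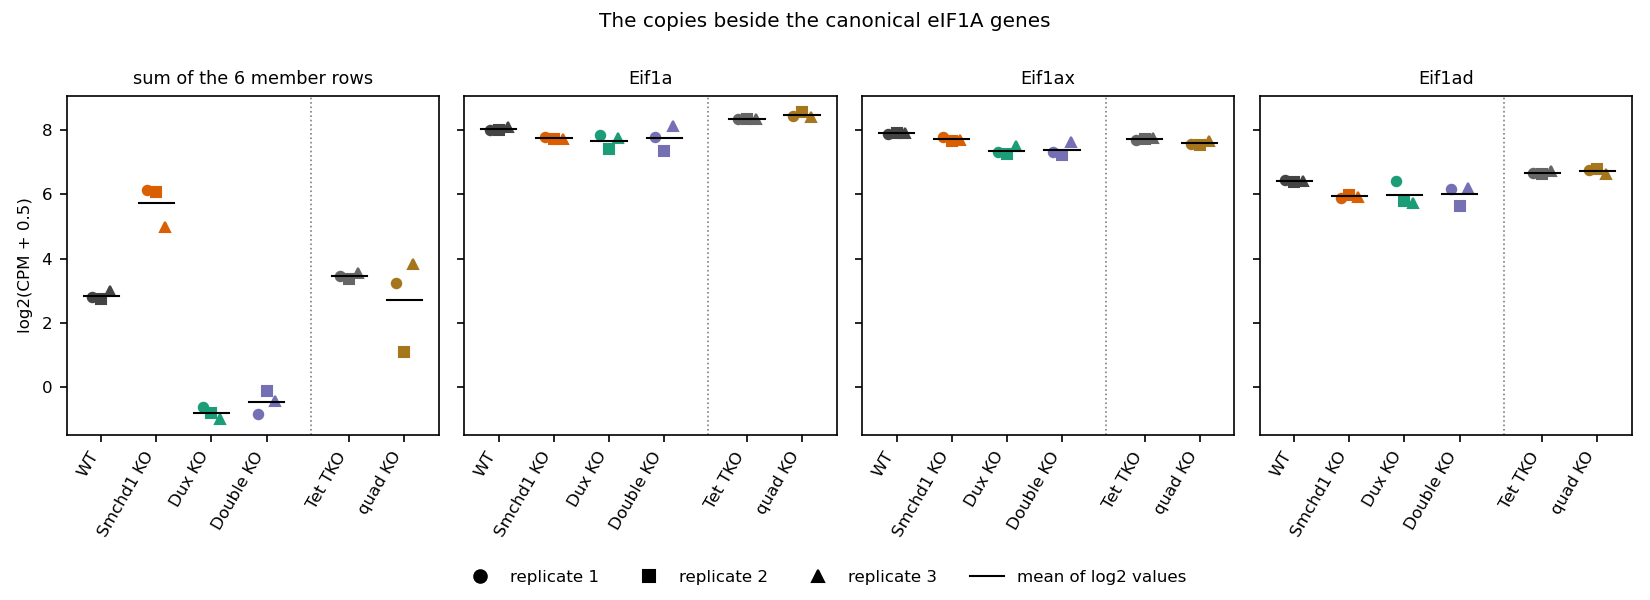
Sum of the 6 member rows beside Eif1a, Eif1ax and Eif1ad, as log2(CPM + 0.5) in each replicate of the 6 genotypes (symbols; the line is their mean); the dotted line parts the tables, which were scaled separately. The family sum spans more than 6 log2 units between Dux KO and Smchd1 KO, while Eif1a lies between 164 and 278 CPM in all 12 samples of that table.

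Most of the other 2-cell genes tested also rose in Smchd1 KO. Of 39 listed names the tables hold 29 rows, of which 24 passed the filter. In Smchd1 KO vs WT 22 of the 24 rose and none fell (median 1.87, against 0.00 over all genes), among them Zscan4c, of the Zscan4 zinc finger family, by 2.38 ± 0.27 (adjusted p = 0.00131), and Usp17l5, of the Usp17 deubiquitinases, by 2.65 ± 0.22 (adjusted p = 0.000395). Only 10 of the 24 would have passed without the Smchd1 KO samples, and 8 of these rose. Zfp951 (1.77, adjusted p = 0.442) and Usp26 (0.81, adjusted p = 0.319) did not pass. In Dux KO vs WT 11 fell and 13 did not pass (median -1.02, against -0.03 over all genes, of which 2.35% were lower). Of the 10 rows that would have passed the filter without Smchd1 KO 9 fell, and of the 14 others 2 did. At an unadjusted p under 0.05, 19 of 24 were lower, where 4205 of all 16200 genes differed in either direction. In Double KO vs Dux KO none passed in limma (0 of 24 at an unadjusted p under 0.05). In Double KO vs Smchd1 KO 23 fell, of which 14 had their difference built in by the filter, and of the 10 others 9 fell. Zfp951 had positive differences in Dux KO (1.48) and Double KO (2.13) against WT that did not pass (adjusted p = 0.412 and 0.265). The list summed to 32.3 to 34.1 CPM in WT, 98.02 to 187 CPM in Smchd1 KO and 4.52 to 16.6 CPM in Dux KO. In Double KO it was 8.79 and 4.89 CPM in replicates 1 and 2 and 37.9 CPM in replicate 3, above every WT replicate. That sum does not show a rise of the list: in Double KO vs WT 11 of the 24 fell and none rose (median -0.999). Only Zfp951 (2.13) and Sp110 (0.20) had positive differences there, and neither passed. Zscan4c and Zscan4d had Double KO means of 0.0402 and 0.0396 CPM, against 2.20 and 3.35 CPM in WT. Which rows made up the sum of replicate 3 was not tested. The fitted rises of Gm5662, Gm8300, Gm2016 and BB287469 (ENSMUSG00000071217.2) lay above the list's median and that of Gm4027 below it.

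The rows that followed the family sum most closely over the 12 samples of the first table were from the same programme. Gm8994, an uncharacterised gene of the 2-cell list, had the highest Pearson correlation of log2(CPM + 0.5) with the family sum (r = 0.997), followed by Zscan4c (0.996), Zscan4d (0.995), Zscan4e (0.994) and Dub3 (0.993). These values describe samples that fall into separate genotype groups and share a table, and carry no test. The row called Dux was at 0.0410, 0.113 and 0.141 CPM in WT replicates 1, 2 and 3 and at 0.833, 0.847 and 0.410 CPM in Smchd1 KO, where replicate 3 was also the lowest. Gm10807 was at 0.0522, 0.147 and 0.0660 CPM in WT and at 0.426, 0.675 and 0.114 CPM in Smchd1 KO, with groups that overlapped. It was at 0.122 ± 0.106 CPM in Double KO. Both rows had low counts and were under the filter.

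In the first table few genes beside the array passed a test. The 5 nearest tested genes on each side, Snw1, Alkbh1, Sptlc2, Ism2 and Ahsa1 before it and Adck1, Gtf2a1, Ston2, Sel1l and Flrt2 after it, had differences from -0.59 to 0.71 in Smchd1 KO vs WT, and none of the 10 passed in limma (1 at an unadjusted p under 0.05). None passed in Dux KO against WT (3 at an unadjusted p under 0.05, differences from -0.42 to 0.80), and in Double KO against Smchd1 KO, where differences ran from -0.30 to 0.74, Ston2 rose (adjusted p = 0.0489). At an unadjusted p under 0.05, 2660 of all 16200 genes tested passed in Smchd1 KO vs WT and 4205 in Dux KO vs WT. Gm2046, a tested gene that lies between the members, rose in Smchd1 KO against WT (1.56, adjusted p = 0.00454). It fell in Double KO against Smchd1 KO (-2.05, adjusted p = 0.000301) and did not pass in Dux KO against WT (-0.49, adjusted p = 0.188). Its fitted levels in Dux KO and Double KO were equal, as in rows without reads there, and WT lay little above them. It therefore passed the filter only with Smchd1 KO samples, and a difference was built into its rise and its fall. The median of 546 chromosome 12 genes lay between -0.24 and 0.07 in each of the 12 samples relative to the WT mean. Markers of other cell types varied between replicates: the trophoblast list (7 of 8 names in the tables) summed to 63.9 to 68.0 CPM in WT, 82.6 to 180 CPM in Smchd1 KO, 23.3 to 218 CPM in Dux KO and 152 to 768 CPM in Double KO, with Elf5 at most 0.178 CPM. Primitive endoderm markers, present for all 8 names, summed to 74.9 to 79.9, 41.8 to 210, 34.4 to 161 and 21.2 to 175 CPM in the same order, with Afp at most 0.935 CPM. Of 7 endoderm rows tested, only Hnf4a, a transcription factor of endoderm and liver, passed in any comparison of this table. It rose in Smchd1 KO against WT (1.46, adjusted p = 0.0227), fell in Double KO against Smchd1 KO (-1.32, adjusted p = 0.0224) and passed the interaction (-2.13, adjusted p = 0.0331). None of the 7 passed in Dux KO against WT or Double KO against WT, where most tested member rows fell. Fibroblast markers (8 of 8) summed to 20.5 to 22.7, 29.5 to 57.4, 11.8 to 33.6 and 30.8 to 57.2 CPM, with Lum at most 0.0119 CPM. Of these markers Col3a1 rose in Double KO, against WT (2.26, adjusted p = 0.0183) and against Smchd1 KO (1.77, adjusted p = 0.0256). Smchd1 KO replicate 3, the lowest of its group for the family, had the highest trophoblast and endoderm sums of that group. Their part in the family's values was not tested.

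In cells without TET enzymes the family was present at a level that varied little between replicates. In Tet TKO replicates 1, 2 and 3 Gm5662 was at 5.16, 4.87 and 5.90 CPM, Gm8300 at 1.90, 2.63 and 2.46 CPM, BB287469 (ENSMUSG00000071217.2) at 1.93, 1.38 and 1.62 CPM and Gm2016 at 1.15, 0.761 and 1.07 CPM. Gm4027 had 13 reads and the second BB287469 row 8 in all. The replicates of Gm5662 lay above those of every other row.

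Loss of Smchd1 on top of the Tet genes gave no row that passed as higher, and the quad KO replicates were far apart. Gm5662 was at 4.58, 0.919 and 7.54 CPM in quad KO replicates 1, 2 and 3. Gm8300 was at 1.90, 0.318 and 2.48 CPM and BB287469 (ENSMUSG00000071217.2) at 1.57, 0.106 and 2.91 CPM. Replicate 2 was the lowest in each of these rows, and except in Gm2016 the quad KO replicates spanned or overlapped those of Tet TKO. Gm2016 was at 0.601, 0.141 and 0.359 CPM, all below Tet TKO.

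The sum of the 6 rows was 8.92, 1.63 and 13.7 CPM in quad KO against 10.4, 9.89 and 11.2 CPM in Tet TKO. Of the 4 rows tested, 1 fell and none rose, in a comparison in which 37.7% of all 14920 genes tested differed, 20.6% lower and 17.1% higher. Gm2016 fell by 0.81 ± 0.22 on the log2 scale (adjusted p = 0.0214). It reached 0.5 CPM in every Tet TKO replicate but only in replicate 1 of quad KO, so a fall was favoured by its passing the filter. Without Tet TKO replicate 1 or 3 the call of Gm2016 was lost (adjusted p = 0.0846 and 0.0781). Gm8300 was at -0.64 ± 0.44 (95% interval -1.65 to 0.37, adjusted p = 0.281), Gm5662 at -0.58 ± 0.55 (-1.85 to 0.69, adjusted p = 0.434) and BB287469 at -0.39 ± 0.55 (-1.66 to 0.87, adjusted p = 0.602). Without quad KO replicate 2, BB287469 was at 0.32 and Gm5662 at 0.14, and the ratio of mean sums was 0.11 on the log2 scale in place of -0.38. Without quad KO replicate 3, Gm8300 (adjusted p = 0.0401) and Gm5662 (-1.11, adjusted p = 0.0419) passed as well. Whether the effect of losing Smchd1 differed between cells with and without TET enzymes was not tested, since the genotypes stand in separately scaled tables.

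The genes beside the array were lower in 2 of the 3 quad KO replicates. Relative to the Tet TKO mean, the median log2 difference of the 10 flanking genes was -0.63 in replicate 1 and -0.89 in replicate 2, with all 10 below 0 in both, and -0.06 in replicate 3. The median of 493 genes of the whole chromosome was -0.12, -0.15 and 0.02 in the same replicates. In the fit, Sptlc2, Gtf2a1, Ston2 and Sel1l fell, with log2 changes of -0.54, -0.48, -0.66 and -0.76 (adjusted p = 0.0183, 0.00746, 0.00463 and 0.00789), and the other 6 had differences from -0.24 to -0.77. Of all genes tested, 20.6% were lower and 17.1% higher in quad KO vs Tet TKO. With the median of each chromosome centred in each sample, the count of member calls was still 1. That centring uses all kept genes of a chromosome, so it cannot take out a difference limited to the region beside the array.

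Genes of the 2-cell list elsewhere in the genome had the same order of quad KO replicates. Their 29 rows summed to 80.5, 46.9 and 111 CPM in replicates 1, 2 and 3, against 96.5 to 100.1 CPM in Tet TKO. Of the 19 tested, 1 rose, Zfp951 (0.72 ± 0.12, adjusted p = 0.00244), and 1 fell, Usp26 (-1.83 ± 0.07, adjusted p = 1.26e-05); the median was -0.11, against -0.01 over all genes. The trophoblast list summed to 432, 528 and 274 CPM in the same replicates, against 217 to 226 CPM in Tet TKO. Fibroblast markers summed to 30.3 to 33.4 CPM in quad KO and 19.1 to 19.5 CPM in Tet TKO, and endoderm markers to 19.99 to 21.0 and 19.8 to 20.8 CPM. Single markers passed in both directions: of 6 trophoblast markers tested 5 rose and Gata3 fell (-1.39, adjusted p = 0.00173), of 6 endoderm markers 2 rose and 3 fell (median -0.89, Hnf4a -1.69), and of 5 fibroblast markers 3 rose. Over all genes tested 17.1% were higher and 20.6% lower. Elf5 was at most 0.136 CPM and Lum at most 0.0691 CPM. The part of the flanking region, of these markers and of the ES cell markers in the family's values was not tested.

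The rows closest to the family sum over the 6 samples of this table were Cd68, a lysosomal glycoprotein (r = 0.999), Zfp819 (0.994), the pseudogene Zscan4-ps2 (0.991), Gm15706 (0.990) and Laptm4b (0.989). With 6 samples, of which 1 stands far below the rest, these values are a description.

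**Figure D5:**
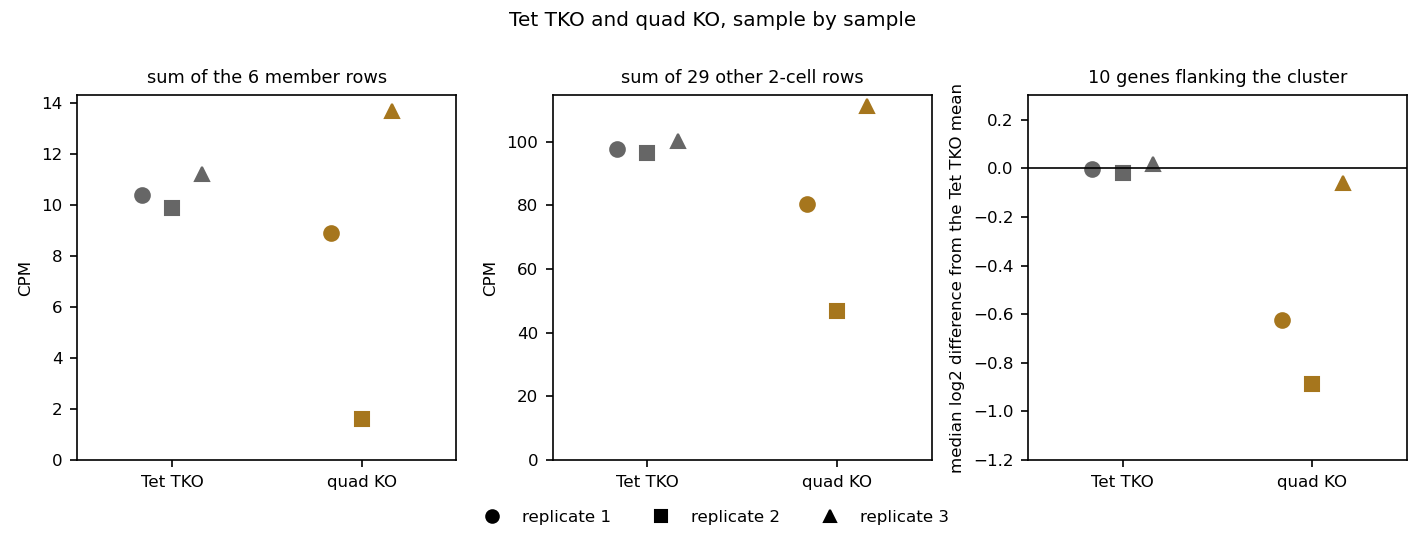
Summed CPM of the 6 member rows (left) and of 29 rows of other 2-cell genes (middle), and median log2 difference of 10 genes flanking the array from the Tet TKO mean (right), in 3 replicates (symbols) of Tet TKO and quad KO. Quad KO replicate 2 is lowest in all panels (1.63 CPM, 46.9 CPM and -0.89), and replicate 3 is the highest quad KO sample in all panels.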

How the data were processed

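RNA was measured in 18 biological samples of mouse ES cells (6 genotypes, 3 each). Per the labels' protocols, total RNA was depleted of ribosomal RNA and made into libraries with a KAPA RNA HyperPrep kit. Trim Galore, STAR 2.5.1, limma 3.38.2 and build mm9 are named in the submitters' processing notes; the read counter, annotation and filters were not given in the sources used here.

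The authors deposited 2 tables of CPM values per gene, a scaled signal and not counts. Within a library the deposited values were whole multiples of 1 step: at levels below 200 reads, 100% were whole to a tolerance of 0.1 read, so reads were recovered. Column totals ran from 906871 to 1054029 in the first table and from 973442 to 1000742 in the second, so the values were scaled by more than library totals. The tables were analysed separately, and 3 columns of the second that match no labelled sample were not used. WT and Smchd1 KO samples were sequenced as 2 technical runs, averaged in CPM and summed in reads. Smchd1 KO columns carry no replicate label and were joined by lowest noise ratio (1.39 to 1.75 within and 3.56 to 16.3 between joined columns), and their replicate numbers are names only.

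Main test: limma 3.58.1 (R 4.3.3) with a mean-variance trend on log2(CPM + 0.5), all genotypes of a table in 1 fit, genes with at least 0.5 CPM in 3 samples, Benjamini-Hochberg adjustment over all genes kept (16200 and 14920), threshold 0.05. Alternatives varied the value added, the filter, quantile normalization, array weights, the technical run, the samples in the fit, a replicate block, chromosome centring and each replicate, and edgeR 4.0.16 and DESeq2 1.42.0 were run on the recovered reads; the files hold no counts, so neither is the main test. On simulated data the steps were tested with known changes. Intervals of reads are exact Poisson or Clopper-Pearson ones and, like limits of 3 reads, cover counting error only. Named genes are the members, their relatives, members of the initiation factor and 2-cell lists, Dux, Gm10807, Smchd1 and the 5 genes per table most correlated with the family sum. Flanking genes are the 5 nearest kept genes on each side of the array. Members and gene lists were chosen with earlier results of these data known.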

Additional observations from a re-analysis of the deposited data

Results flagged for a closer look

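The interaction term of the limma fit, which sets the effect of losing Smchd1 in cells with Dux against that in cells without it, passed on the log2(CPM + 0.5) scale, where the near absence of reads without Dux holds the second effect near 0. It passed in no row with edgeR, DESeq2 or 0.1 added, so a difference in relative effect is not shown. The term was -2.73 for Gm5662, -2.57 for Gm8300, -2.46 for BB287469 (ENSMUSG00000071217.2), -2.15 for Gm2016 and -1.55 for Gm4027. Each came from a rise in Smchd1 KO over WT and from Dux KO and Double KO replicates that overlapped near 0 reads. Adjusted p ran from 0.0224 to 0.0355, and over the alternatives from 0.000822 to 0.9998. The test for Gm4027 rests on a row that passed the filter through Smchd1 KO alone.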

How the results depend on the processing

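The rises in Smchd1 KO vs WT and the falls in Double KO vs Smchd1 KO kept their direction and calls under every alternative in which the 5 rows were tested. For Gm4027 a difference in both was built into its passing the main filter. Reversed values were 0.079 (Dux KO against WT) and 0.045 (Double KO against WT) for Gm4027 with quantile normalization, and for Gm8300 in Double KO vs Dux KO -0.036 with quantile normalization, -0.055 with array weights and -0.027 with chromosome medians centred, an alternative chosen after seeing the data (-0.046 to 0.11 when each replicate was left out). The interaction was 1.25 for BB287469 and 1.07 for Gm2016 in edgeR. In quad KO vs Tet TKO, leaving out each replicate gave -0.93 to 0.32 for BB287469 and -1.11 to 0.14 for Gm5662. The cause was not tested.

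Counts of all genes called moved over 1.5 times in these cases. With 0.1 added the interaction had 9. Without a filter Dux KO vs WT had 338 and Double KO vs Dux KO 12, and with a 2 CPM filter Smchd1 KO vs WT had 71 and the interaction 11. Quantile normalization gave 344 (Dux KO vs WT) and 152 (Double KO vs WT). In edgeR Smchd1 KO vs WT had 230, Double KO vs WT 555 and the interaction 7. DESeq2 called 1084 in Smchd1 KO vs WT, 2606 in Dux KO vs WT, 220 (Double KO against Dux KO), 2456 (against Smchd1 KO), 2008 (against WT) and 948 in the interaction. Array weights gave 9292, 6431, 1, 2673, 2439 and 2242 in that order and 10792 in quad KO vs Tet TKO. With chromosome medians centred Double KO vs Dux KO had 4. Run 1 alone gave 508 (Double KO vs WT), and run 2 alone 368 (Dux KO vs WT), 144 (Double KO against WT) and 48 (interaction). A fit to 2 genotypes alone gave 6852 (Smchd1 KO vs WT), 0 (Double KO against Dux KO) and 121 (Double KO vs Smchd1 KO). The percent of calls that were higher moved by over 10 points with DESeq2 from 72.9 to 59.3 (Smchd1 KO vs WT), from 41.0 to 58.1 (Dux KO vs WT; 62.0 in edgeR), from 31.9 to 50.8 (Double KO vs Smchd1 KO; 48.2 in edgeR) and from 43.5 to 57.7 (Double KO vs WT; 67.2 in edgeR), and with quantile normalization from 31.9 to 42.8 (Double KO vs Smchd1 KO).

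Leaving out each replicate gave 51 to 79 calls in Smchd1 KO vs WT, 2 to 2790 in Dux KO vs WT, 0 to 146 in Double KO vs Dux KO, 99 to 2428 in Double KO vs Smchd1 KO, 2 to 3006 in Double KO vs WT, 0 to 1203 in the interaction and 3541 to 7638 in quad KO vs Tet TKO. The log2 ratio of mean family sums was then 2.87 to 3.35, -7.61 to -5.94, 1.04 to 2.82, -8.55 to -7.39, -5.48 to -4.33 and, in quad KO vs Tet TKO, -0.99 to 0.11. Without Gm8300 that of Dux KO vs WT was -7.57 in place of -6.53.

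With the replicate block Dux KO vs WT had 32 calls and Double KO against WT 25, against Dux KO 2 and quad KO vs Tet TKO 4913, and the number of member calls did not change. Same-numbered samples correlated from -0.135 to 0.469 in the first table and from -0.030 to 0.017 in the second. Samples with different numbers correlated from -0.372 to 0.199 and from -0.0492 to 0.0395, so in the first table the same-numbered range lay higher. The numbers mark no stated batch, so the block was kept as an alternative and not used in the main fit. Smchd1 KO columns carry no number, so no block was fitted there. Reads in Dux KO and Double KO (3 and 12 for the family) limit any comparison between them.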
